A study of Mus musculus with 9 samples.

Results

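The genes of fatty acid synthesis were followed together with *Mid1ip1* in RNA-seq of mouse intestinal organoids. They are 10 of the 54838 gene identifiers measured, and each is described in all 7 RNA-seq libraries: *Mid1ip1*, *Thrsp*, *Scd1*, *Scd2*, *Elovl6*, *Fasn*, *Acaca*, *Acly*, *Me1* and *Srebf1*. They were matched by symbol and were picked from these same libraries, because *Mid1ip1* moves in opposite directions with Nec-1 in the organoids labelled EtOH and 4-OHT and *Scd1* is higher with Nec-1 in both. The changes with Nec-1 therefore chose the genes, and they are given below as a description, without a test. The mice were *Vil-CreERT2*;*Mettl3* fl/fl on a C57BL/6 background. According to the methods of the study, which name no strain, they were male and 2 to 4 months old. All groups carry both alleles. The villin promoter drives a Cre recombinase that 4-OHT (4-hydroxytamoxifen) activates, so floxed *Mettl3* is targeted in epithelial cells. EtOH, the vehicle, or 4-OHT was given for 2 days, and DMSO or the RIPK1 inhibitor Nec-1 (necrostatin-1) for 5 days. The concentration of Nec-1 is 5 µM in a figure legend and 10 µM in the methods. Each group had 2 libraries except 4-OHT Nec-1, which had 1, and no group received 4-OHT without carrying the Cre. Nothing states that the libraries of a group came from separate mice, so p-values measure the spread between these libraries, which may be technical.

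De novo lipogenesis turns citrate exported from mitochondria into fatty acids. ATP citrate lyase (*Acly*) splits citrate into acetyl-CoA, acetyl-CoA carboxylase (*Acaca*) makes malonyl-CoA, and fatty acid synthase (*Fasn*) builds palmitate with NADPH, some of it from malic enzyme (*Me1*). *Elovl6* lengthens the chain and the stearoyl-CoA desaturases (*Scd1*, *Scd2*) place a double bond in it. *Srebf1* encodes SREBP-1, a transcription factor of this pathway. The product of *Mid1ip1* binds acetyl-CoA carboxylase and promotes its assembly into active polymers, and *Thrsp* (Spot 14) is a relative of *Mid1ip1*. In the intestine these enzymes supply lipid for membranes and for triglycerides packed into lipoproteins.

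The RefSeq promoter table (assembly GRCm38.p6, the assembly that mm10 denotes) held a window for 8 of the 10 genes. The 250 bases before a start site are shown, in the sense of the gene, for *Mid1ip1*, the gene with opposite changes, and for 3 enzymes that were lower in 4-OHT DMSO. The *Mid1ip1*, *Me1* and *Acly* windows precede the outermost annotated start, and the *Fasn* window precedes a start inside the annotated gene. Capitals mark matches on either strand to a GC box, spelled GGGCGG, to a CCAAT box, named for its letters, or to the core of a sterol regulatory element, for which the run CACCCCA was searched.
Mid1ip1 (chrX:10717115-10717364, plus strand): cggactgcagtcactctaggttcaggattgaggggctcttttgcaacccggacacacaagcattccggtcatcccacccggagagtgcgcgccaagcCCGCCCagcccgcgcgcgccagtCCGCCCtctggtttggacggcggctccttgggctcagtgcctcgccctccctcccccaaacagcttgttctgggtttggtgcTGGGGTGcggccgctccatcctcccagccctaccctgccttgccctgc
Me1 (chr9:86695915-86696164, minus strand): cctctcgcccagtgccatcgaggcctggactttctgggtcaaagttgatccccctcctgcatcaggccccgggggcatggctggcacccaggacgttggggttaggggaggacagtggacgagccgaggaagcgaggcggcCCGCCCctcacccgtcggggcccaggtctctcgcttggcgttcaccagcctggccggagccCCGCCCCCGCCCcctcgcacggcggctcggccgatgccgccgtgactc
Acly (chr11:100528001-100528250, minus strand): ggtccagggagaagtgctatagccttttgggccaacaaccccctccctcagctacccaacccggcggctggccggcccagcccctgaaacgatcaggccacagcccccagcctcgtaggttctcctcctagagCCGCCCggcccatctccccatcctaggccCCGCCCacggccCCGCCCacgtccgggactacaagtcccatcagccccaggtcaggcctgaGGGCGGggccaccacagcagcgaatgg
Fasn (chr11:120824548-120824797, minus strand): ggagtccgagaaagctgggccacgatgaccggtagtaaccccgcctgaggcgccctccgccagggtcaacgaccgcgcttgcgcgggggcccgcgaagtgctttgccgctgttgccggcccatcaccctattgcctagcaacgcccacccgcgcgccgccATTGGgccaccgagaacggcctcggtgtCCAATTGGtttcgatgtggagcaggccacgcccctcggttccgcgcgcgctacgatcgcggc
The *Mid1ip1* window held 2 GC boxes, 153 to 148 and 130 to 125 bases before the start, and 1 match to the sterol element core, 48 to 42 bases before it. *Me1* held 3 GC boxes, of which 2 adjoin at 48 to 43 and 42 to 37 bases before the start, and *Acly* held 4. *Fasn* held 3 CCAAT boxes and no GC box, and the matches at 62 to 58 and 59 to 55 bases before the start share bases. Of the 32851 windows in the table, 32.74% held a GC box and 33.85% a CCAAT box, so neither is particular to these genes. The sterol element core was in 6.685% of windows, and among the 8 genes *Mid1ip1* alone held it. An E-box (CACGTG, in 6.021% of windows) and the core bound by the aryl hydrocarbon receptor, AhR (TNGCGTG, in 4.1%), were searched on both strands and had no match in the windows of the 8 genes. A match is only a run of letters, and no match says only that these letters are not in the window.

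The authors deposited FPKM, that is, fragments scaled to the length of the transcript and to the mapped fragments of the library, which can be compared between genes. The sums per library were 450207 to 498712, and 11559 to 12038 genes per library reached 1 FPKM. Fragment counts were not used here, so the depth behind single values is unknown. Differences are on the log2(FPKM + 1) scale unless a ratio of FPKM is named, and the pseudocount of 1 makes them smaller for genes near 1 FPKM. *Mettl3* had higher values under the label 4-OHT than under EtOH, at 2.70 and 2.71 FPKM (EtOH DMSO), 2.41 and 2.47 (EtOH Nec-1), 3.72 and 4.14 (4-OHT DMSO) and 3.36 (4-OHT Nec-1). These values cover the whole gene, which overlaps *Tox4*, and do not show the floxed part. They show no loss of *Mettl3* and cannot show whether the floxed part was lost. Each direction below therefore rests on the labels "4-OHT" and "EtOH" alone.

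*Mid1ip1* (ENSMUSG00000008035, chromosome X, 10717365 to 10719702) had an order of groups that none of the other 9 genes shared. It was 27.1 and 31.4 FPKM (EtOH DMSO), 90.5 and 91.2 (EtOH Nec-1), 122 and 134 (4-OHT DMSO) and 43.9 (4-OHT Nec-1). No 2 groups overlapped, and the order from low to high was EtOH DMSO, 4-OHT Nec-1, EtOH Nec-1 and 4-OHT DMSO. With Nec-1 it was 3.11-fold higher in EtOH organoids (log2 difference 1.61) and 0.342 times the DMSO level in organoids labelled 4-OHT (−1.52, or −1.45 and −1.59 against each DMSO library). Without Nec-1 it was 4.38-fold higher in 4-OHT DMSO than in EtOH DMSO (2.097), and with Nec-1 it was 0.483 times as high in 4-OHT Nec-1 as in EtOH Nec-1 (−1.03). The DMSO libraries were used to pick the gene, so none of these differences is tested. Among the 12702 genes tested, 0.346% lay at least 1 log2 unit above both EtOH DMSO libraries in both EtOH Nec-1 libraries, and 1.15% lay at least 1 below both 4-OHT DMSO libraries in 4-OHT Nec-1. *Mid1ip1* was the only gene, 0.00787% of those tested, that did both, and opposite changes with Nec-1 are what it was picked for. *Thrsp* (ENSMUSG00000035686, chromosome 7, 97412933 to 97417550) was far below it, at 0.0219 and 0.0222 FPKM in EtOH DMSO, listed at 0 in both EtOH Nec-1 libraries, at 0.0832 and 0 in 4-OHT DMSO and at 0.0363 in 4-OHT Nec-1. It stayed under the filter of 1 FPKM in at least 2 libraries, and no difference is given for it. The other 9 genes passed.

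**Figure D1:**
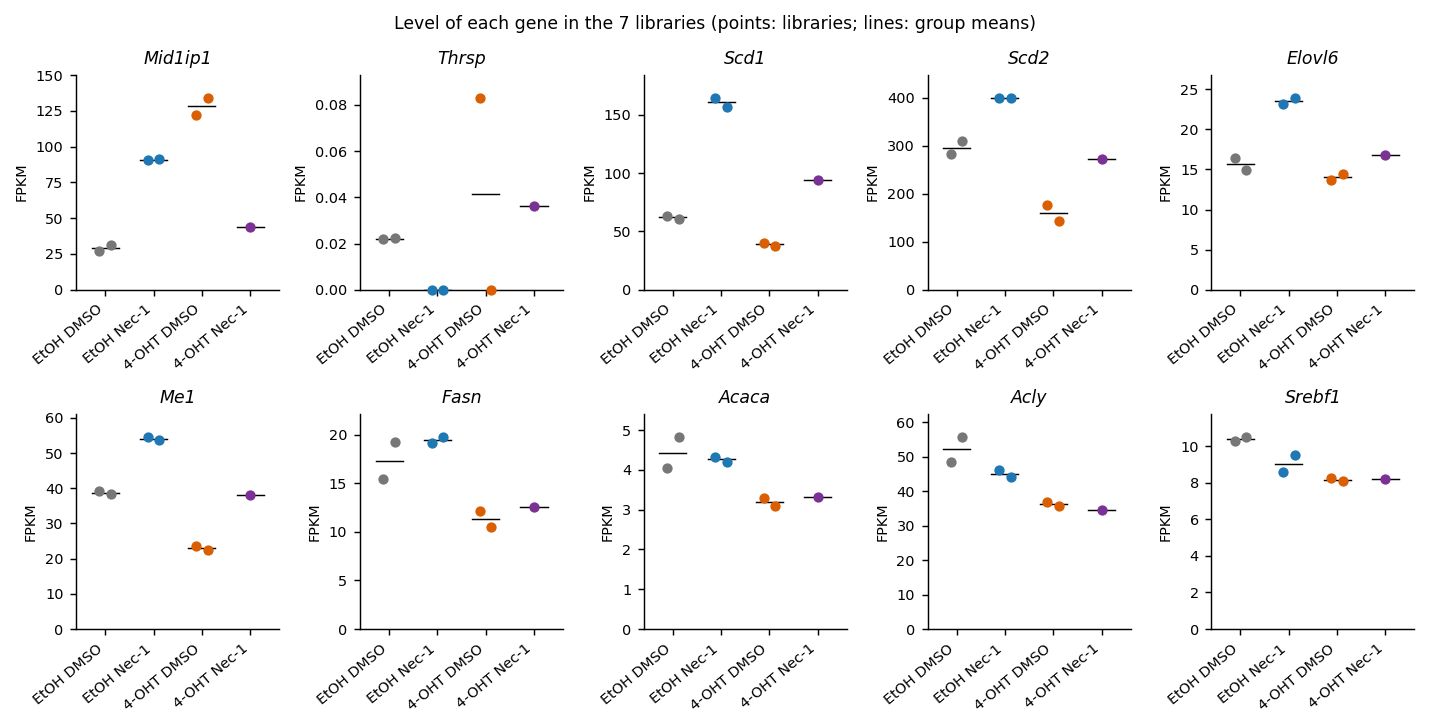
FPKM (vertical axes, linear, each with its own range) of the 10 genes in the 4 groups, with 1 point per library and a line at the group mean. *Mid1ip1* was highest in 4-OHT DMSO, at 122 and 134 FPKM, where *Scd1*, *Scd2* and *Me1* were lowest, and *Thrsp* did not reach 0.1 FPKM in any library.

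The desaturases made up most of the signal of these genes. *Scd2* (ENSMUSG00000025203, chromosome 19, 44293676 to 44306864) was the most abundant of the 10 in every library. It was 282 and 310 FPKM (EtOH DMSO), 399 and 400 (EtOH Nec-1), 177 and 144 (4-OHT DMSO) and 273 (4-OHT Nec-1). Its mean in EtOH DMSO exceeded that of 98.3% of the genes tested. *Scd1* (ENSMUSG00000037071, chromosome 19, 44394450 to 44407709) was 62.9 and 61.0 FPKM (EtOH DMSO), 165 and 157 (EtOH Nec-1), 39.9 and 37.7 (4-OHT DMSO) and 94.3 (4-OHT Nec-1). The 4 groups of *Scd1* did not overlap, and their order was 4-OHT DMSO, EtOH DMSO, 4-OHT Nec-1 and EtOH Nec-1. With Nec-1, *Scd1* was 2.59-fold higher in EtOH organoids and 2.43-fold higher in organoids labelled 4-OHT (log2 differences 1.36 and 1.26), which is the pattern it was picked for. In 4-OHT DMSO it was 0.626 times the EtOH DMSO level (−0.66, untested because the same DMSO libraries chose it). *Scd2* differed with Nec-1 by 0.43 in EtOH organoids and by 0.77 in organoids labelled 4-OHT. Together, *Scd1* and *Scd2* amounted to 345 and 371 FPKM (EtOH DMSO), 564 and 557 (EtOH Nec-1), 217 and 181 (4-OHT DMSO) and 367 (4-OHT Nec-1). The 4-OHT Nec-1 library lay between the EtOH DMSO libraries in this sum. The paralogs lie close together on the chromosome, and fragments from near-identical stretches of *Scd1*, *Scd2*, *Scd3* and *Scd4* could have been split between them. *Scd3* did not exceed 2.57 FPKM in any library and *Scd4* did not exceed 0.545.

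*Elovl6* and *Me1* were also higher with Nec-1 under both labels. *Elovl6* (ENSMUSG00000041220, chromosome 3, 129532386 to 129638495) was 16.4 and 14.9 FPKM (EtOH DMSO), 23.1 and 23.96 (EtOH Nec-1), 13.7 and 14.5 (4-OHT DMSO) and 16.8 (4-OHT Nec-1). *Me1* (ENSMUSG00000032418, chromosome 9, 86581363 to 86695914) was 39.2 and 38.3 FPKM (EtOH DMSO), 54.6 and 53.7 (EtOH Nec-1), 23.5 and 22.4 (4-OHT DMSO) and 38.0 (4-OHT Nec-1). The 4-OHT Nec-1 value of *Me1* was just under both EtOH DMSO values, and that of *Elovl6* was just above them. *Me1* overlaps the long non-coding RNA *A330041J22Rik* by 473 bases, and the strand used in counting is not given in the sources used here.

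The enzymes that make palmitate differed less with Nec-1. *Fasn* (ENSMUSG00000025153, chromosome 11, 120805958 to 120825166) was 15.4 and 19.2 FPKM (EtOH DMSO), 19.1 and 19.8 (EtOH Nec-1), 12.2 and 10.5 (4-OHT DMSO) and 12.6 (4-OHT Nec-1). *Acaca* (ENSMUSG00000020532, chromosome 11, 84129635 to 84401651) was 4.04 and 4.83 FPKM (EtOH DMSO), 4.33 and 4.20 (EtOH Nec-1), 3.28 and 3.09 (4-OHT DMSO) and 3.31 (4-OHT Nec-1). *Acly* (ENSMUSG00000020917, chromosome 11, 100476352 to 100528000) was 48.5 and 55.7 FPKM (EtOH DMSO), 46.1 and 44.0 (EtOH Nec-1), 36.9 and 35.6 (4-OHT DMSO) and 34.6 (4-OHT Nec-1). For *Fasn* and *Acaca* the EtOH DMSO and EtOH Nec-1 libraries overlapped, and for *Acly* both Nec-1 groups lay below their DMSO groups. *Acaca* encloses *Gm11437*, so fragments of that gene may be counted in it. *Srebf1* (ENSMUSG00000020538, chromosome 11, 60199084 to 60224186) was 10.3 and 10.5 FPKM (EtOH DMSO), 8.57 and 9.50 (EtOH Nec-1), 8.26 and 8.07 (4-OHT DMSO) and 8.21 (4-OHT Nec-1). The 4-OHT Nec-1 value of *Srebf1* lay between those of 4-OHT DMSO, and the EtOH DMSO libraries were the highest. *Srebf1* overlaps the end of *Rai1* by 114 bases.

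Without Nec-1, the lipogenesis genes were lower in the libraries labelled 4-OHT, while *Mid1ip1* was higher. This comparison sets 4-OHT against its vehicle, as far as the labels hold. Every group carried the Cre, so *Mettl3* deletion and other effects of 4-OHT or of active Cre cannot be told apart. Of the 7 genes the fit could test here, *Scd2*, *Me1*, *Fasn*, *Acly*, *Acaca* and *Srebf1* fell in 4-OHT DMSO relative to EtOH DMSO (limma, Benjamini-Hochberg adjusted p under 0.05 over 12702 genes). *Elovl6* did not pass. These 6 of 7 stand against 16.7% of all genes tested that were called lower and 41.2% called in either direction. Counted without a test, the 8 genes other than *Mid1ip1* and *Thrsp* were lower in both 4-OHT DMSO libraries than in both EtOH DMSO libraries, as were 30.8% of all genes, and *Mid1ip1* was higher, as were 40.7%. None of the 7 rose at the adjusted threshold, where 24.5% of all genes were called higher. At an unadjusted p under 0.05, 0 were higher and 6 lower by limma, the single tool used.

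The largest fall by log2 difference was that of *Scd2*, at −0.89 (SE 0.12, limma adjusted p = 0.00406). *Me1* fell by 0.73 (SE 0.073, limma adjusted p = 0.00165), with no overlap between the 2 libraries of each group. *Fasn* changed by −0.57 (SE 0.13, limma adjusted p = 0.0206). The change of *Acly* was −0.51 (SE 0.094, limma adjusted p = 0.0101). *Acaca* (−0.37, SE 0.11, limma adjusted p = 0.0431) and *Srebf1* (−0.31, SE 0.088, limma adjusted p = 0.0369) were close to the threshold. *Elovl6*, which extends palmitate, had a difference of −0.14 (SE 0.086, limma adjusted p = 0.241), and its groups still did not overlap. The calls of *Scd2*, *Me1* and *Acly* held when any 1 library was left out. Without EtOH DMSO replicate 2 or without 4-OHT DMSO replicate 2 the count was 3 in place of 6, because *Fasn* (adjusted p = 0.0667 and 0.0641 by limma), *Acaca* (0.125 and 0.131) and *Srebf1* (0.102 and 0.106) no longer passed. *Acaca* and *Srebf1* also missed the threshold without 4-OHT DMSO replicate 1 (limma adjusted p = 0.0854 and 0.0843) and without either EtOH Nec-1 library (0.0908 or 0.0909 and 0.0690 or 0.0695), and *Srebf1* without EtOH DMSO replicate 1 (0.0861). In bulk RNA, a smaller number of cells of a type and less of an mRNA per cell cannot be told apart.

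**Figure D2:**
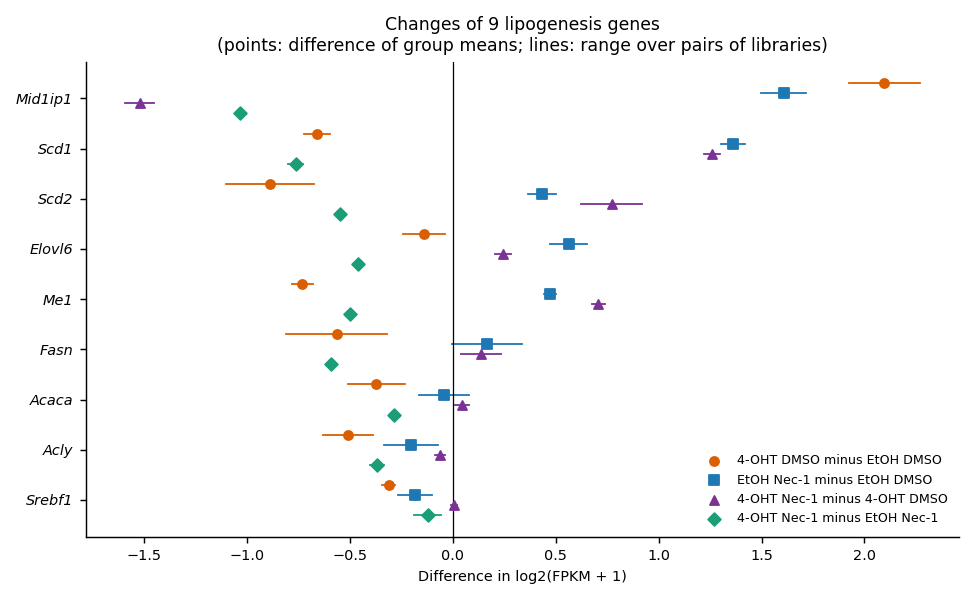
Differences in log2(FPKM + 1) of the 9 genes that passed the filter, for 4 comparisons, with points at the difference of group means and lines over the range of all pairs of libraries. *Mid1ip1* lies at 2.097 in 4-OHT DMSO against EtOH DMSO, where the other 8 genes lie between −0.89 and −0.14, and at −1.52 in 4-OHT Nec-1 against 4-OHT DMSO, where *Scd1* lies at 1.26.

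With Nec-1 in EtOH organoids, the 9 genes did not all move together. *Mid1ip1*, *Scd1*, *Elovl6*, *Me1* and *Scd2* were higher in both Nec-1 libraries than in both DMSO libraries, by 1.61, 1.36, 0.56, 0.47 and 0.43 on the log2 scale. *Acly* and *Srebf1* were lower in both, by −0.20 and −0.18, and *Fasn* (0.17) and *Acaca* (−0.04) overlapped. The 12 other tested genes of elongation and desaturation had a median of −0.006 here, with 4 higher and 3 lower without overlap. Over all genes tested, 10.5% were higher and 39.1% lower without overlap. The median of all genes was −0.0942 here, and after each library was centred on its median 22.4% were higher and 21.7% lower. With that centring 6 of the 9 genes were higher without overlap and 1 was lower. The rule used this contrast, and nothing is read from these counts.

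With Nec-1 in organoids labelled 4-OHT, 6 of the 9 genes were higher in the single Nec-1 library than in both DMSO libraries: *Scd1*, *Scd2* (0.77), *Me1* (0.71), *Elovl6* (0.24), *Fasn* (0.14) and *Acaca* (0.04). *Mid1ip1* and *Acly* (−0.06) were lower, and *Srebf1* (0.007) lay between the DMSO libraries. Of all genes tested, 25.5% were higher and 49.3% lower without overlap, and after median centring 42.3% and 31.8%. With centring *Acly* moved to 0.05, and 8 of the 9 genes were higher and *Mid1ip1* alone was lower. *Scd1*, *Scd2*, *Me1* and *Elovl6* were higher without overlap with Nec-1 under both labels, as were 5.07% of all genes tested. This share is without median centring, which raised the share of genes higher under each label alone, and *Scd1* was picked for this pattern. By at least 1 log2 unit in each, 0.197% of all genes were higher under both labels, *Scd1* among them. The 4-OHT Nec-1 group has no replicate check.

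Under Nec-1, all 9 genes were lower in the library labelled 4-OHT than in both EtOH Nec-1 libraries, as were 38% of all genes tested, and none was higher, as were 50.4%. After median centring all 9 were again lower, as were 49.4% of all genes. The differences ran from −1.03 for *Mid1ip1* and −0.76 for *Scd1* through −0.59 for *Fasn*, −0.55 for *Scd2*, −0.50 for *Me1*, −0.46 for *Elovl6*, −0.37 for *Acly* and −0.29 for *Acaca* to −0.12 for *Srebf1*. For the 4 enzymes that were higher with Nec-1 under both labels, the 4-OHT Nec-1 level thus lay above 4-OHT DMSO and below EtOH Nec-1. For *Fasn*, *Acaca*, *Acly* and *Srebf1* the values of 4-OHT Nec-1 were within 0.14 log2 units of the 4-OHT DMSO mean. Against 4-OHT DMSO replicate 2 alone, *Fasn* differed by 0.235. These comparisons share libraries, so their values are set side by side only.

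Ratios within a library do not depend on how libraries were scaled. Those with *Scd1* or *Mid1ip1* reuse the values these genes were picked on, so their differences with Nec-1 describe that choice. *Scd1* per *Fasn* was 4.07 and 3.18 in EtOH DMSO and 3.28 and 3.59 in 4-OHT DMSO, against 8.62 and 7.92 in EtOH Nec-1, with 7.51 in 4-OHT Nec-1. The DMSO groups overlapped in this ratio, and all 3 Nec-1 libraries were above all 4 DMSO libraries. *Me1* per *Fasn* was 2.54 and 1.99 (EtOH DMSO) and 1.93 and 2.13 (4-OHT DMSO). It was 2.86 and 2.72 in EtOH Nec-1, with 3.03 in 4-OHT Nec-1, so that here too all Nec-1 libraries were above all DMSO libraries. *Elovl6* per *Fasn* did not separate in this way. It was higher in both EtOH Nec-1 libraries (1.208 and 1.212) than in both EtOH DMSO libraries. The 4-OHT Nec-1 library (1.342) lay between the 4-OHT DMSO libraries, and 4-OHT DMSO replicate 2 (1.376) was above all 3 Nec-1 libraries. *Acly* per *Fasn* was lower with Nec-1, at 2.41 and 2.23 in EtOH Nec-1 against 3.14 and 2.90 in EtOH DMSO, and at 2.76 in 4-OHT Nec-1 against 3.03 and 3.38 in 4-OHT DMSO. *Scd1* per *Scd2* was 0.223 and 0.197 (EtOH DMSO), 0.413 and 0.391 (EtOH Nec-1), 0.226 and 0.262 (4-OHT DMSO) and 0.345 (4-OHT Nec-1), so the smaller desaturase signal gained on the larger one with Nec-1 under both labels. *Mid1ip1* per *Acaca*, the enzyme its product binds, was 6.71 and 6.50 (EtOH DMSO), 20.9 and 21.7 (EtOH Nec-1), 37.1 and 43.5 (4-OHT DMSO) and 13.3 (4-OHT Nec-1). The 10 genes summed to 506 and 546 FPKM (EtOH DMSO), 811 and 803 (EtOH Nec-1), 436 and 410 (4-OHT DMSO) and 525 (4-OHT Nec-1). *Scd1* and *Scd2* were 68.0% to 70.0% of that sum except in 4-OHT DMSO, where they were 49.7% and 44.3% and *Mid1ip1* took a larger part.

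**Figure D3:**
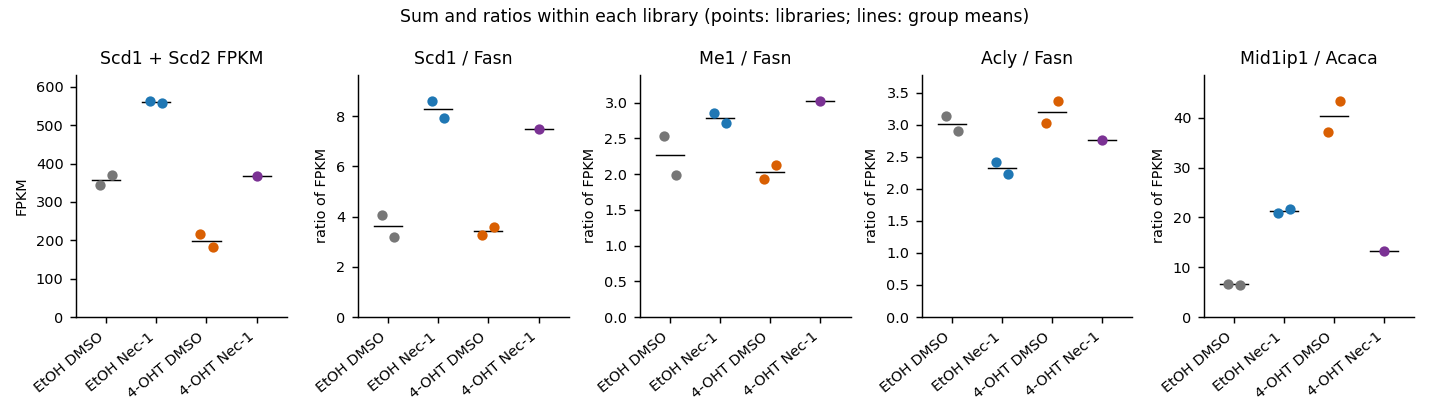
The sum of *Scd1* and *Scd2* in FPKM and 4 ratios of FPKM within each library (vertical axes start at 0), with 1 point per library and a line at the group mean. *Scd1* per *Fasn* lies between 3.18 and 4.07 in the DMSO libraries and between 7.51 and 8.62 in the Nec-1 libraries, and *Mid1ip1* per *Acaca* is highest in 4-OHT DMSO.

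The other genes of lipid metabolism were taken as 8 lists that hold none of the 10 genes. In 4-OHT DMSO, 5 of the 9 tested genes of fatty acid synthesis and of acetyl-CoA and NADPH supply fell and 2 rose, with a median log2 difference of −0.42 beside 0.0767 for all genes tested. Of all genes tested 16.7% fell and 24.5% rose, the latter near the share of rises in this list and the next. *Pklr*, which makes pyruvate, was 151 and 158 FPKM in EtOH DMSO and 56.6 and 59.0 in 4-OHT DMSO (−1.40, limma adjusted p = 0.000425). *Acss2*, which makes acetyl-CoA from acetate, fell by 1.22 (limma adjusted p = 0.00147). *Pgd* of the pentose phosphate pathway, another source of NADPH, rose by 0.78 (limma adjusted p = 0.00133), as did the mitochondrial synthase *Oxsm* by 1.11 (0.00241). *Acacb*, the other acetyl-CoA carboxylase, stayed under 1 FPKM in every library. Of 12 tested genes of elongation and desaturation, 6 fell and 3 rose (median −0.34), and the lower count was 4 to 7 over the alternatives. *Fads3* fell by 1.03 (limma adjusted p = 0.00146) and *Tecr*, the last enzyme of the elongation cycle, by 0.79 (0.00125). *Hacd2*, of the same cycle, rose by 0.72 (limma adjusted p = 0.00421). *Hsd17b12*, also of that cycle, rose by 1.50 (limma adjusted p = 0.0194), from 22.9 and 23.3 to 67.7 and 67.0 FPKM, and its EtOH Nec-1 libraries were far apart at 59.1 and 27.0.

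Of 14 lipogenic transcription factors and SREBP processing genes, 4 rose and 4 fell in 4-OHT DMSO (median 0.16, and 0.003 with median centring), and this balance depends on the scaling: with median centring and also with upper quartile scaling 1 was higher and 5 were lower. It depends on single libraries too. The higher count was 1 without either EtOH DMSO library or without 4-OHT DMSO replicate 2, and 2 without either EtOH Nec-1 library, with a block for the replicate number, without the trend, without the filter and with only the 4 libraries. The lower count was 2 without EtOH DMSO replicate 2 or 4-OHT DMSO replicate 1. *Insig1*, which retains SREBP in the endoplasmic reticulum and is itself an SREBP target, was 181 and 189 FPKM in EtOH DMSO and 80.7 and 89.2 in 4-OHT DMSO (−1.12, limma adjusted p = 0.000851). *Srebf2*, the factor of cholesterol synthesis, fell by 0.71 (limma adjusted p = 0.00502). *Scap*, the SREBP escort, rose by 0.56 (0.00837), and *Mbtps2*, a protease that releases SREBP, rose by 0.45 (limma adjusted p = 0.0192, but 0.0517 with median centring and 0.0509 with upper quartile scaling). Of 6 tested subunits of AMPK, the kinase that inactivates acetyl-CoA carboxylase, *Prkaa1* (0.71) and *Prkab1* (0.71) rose and *Prkag2* (−1.64) fell, with a median of 0.002. *Prkag1* (−0.27) was at the threshold (limma adjusted p = 0.0498, with 0.0113 after median centring and 0.0134 after upper quartile scaling). The count of lower subunits, 2 with it, was 1 with pseudocounts of 0.1 and 0.25, without the filter, without the trend, with only the 4 libraries, with the block and without any 1 of the 6 libraries other than 4-OHT Nec-1. Of 18 genes of fatty acid activation and triglyceride synthesis, 4 rose, among them *Gpat4* (0.88) and *Agpat2* (0.68), and 3 fell, among them *Mogat2* (−0.77) and *Acsl5* (−0.58), with a median of −0.04. Of all genes tested 24.5% rose and 16.7% fell, shares near those of these 18. With median centring 3 were higher and 6 lower, and with upper quartile scaling 3 and 5. No LXR target of 3 tested passed by limma, nor did any at an unadjusted p under 0.05 (0 genes).

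Genes of 2 neighbouring pathways also fell in 4-OHT DMSO. Of 12 tested genes of cholesterol synthesis and uptake, 7 fell and 0 rose by limma, also 0 at an unadjusted p under 0.05 (median −0.43). *Idi1* fell by 1.24 (limma adjusted p = 0.000697) and the sterol carrier *Stard4* by 0.97 (0.00109). Of 16 genes of mitochondrial and peroxisomal fatty acid oxidation, 8 fell and 1 rose (median −0.32). *Hadh* was 109 and 103 FPKM in EtOH DMSO and 32.4 and 33.9 in 4-OHT DMSO (−1.64, limma adjusted p = 0.000321), *Acaa2* fell by 1.45 (0.000452) and *Cpt2* rose by 0.74 (0.00854). After median centring, these list medians and those of the first 2 were lower still, at −0.59, −0.47, −0.58 and −0.50. Over all genes tested, 3117 (24.5%) were higher and 2120 (16.7%) lower in this comparison, and with median centring 2213 and 3187. The balance of directions over the series thus depends on the scaling. The centring moved the median of all genes from 0.0767 to −0.0803.

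With Nec-1 in EtOH organoids, 0 of the 90 tested genes of the 8 lists passed the threshold by limma, where 0.22% of all genes did (0.173% higher and 0.0472% lower). At an unadjusted p under 0.05, 11 were higher and 10 lower. The largest list median was that of the LXR targets (0.57), with *Abcg5* at 13.2 and 13.6 FPKM in EtOH DMSO and 20.7 and 22.3 in EtOH Nec-1 (lowest adjusted p of the list 0.11 by limma). The same sterol exporter was 15.4 and 13.6 FPKM in 4-OHT DMSO, but 28.1 in 4-OHT Nec-1, and its partner *Abcg8* was 8.11 and 8.04 and then 19.1. The other list medians with Nec-1 in EtOH organoids lay between −0.17 and 0.11. In the library labelled 4-OHT Nec-1, the 8 list medians lay between 0.03 and 0.91 against 4-OHT DMSO, above the −0.0814 of all genes. *Insig1*, *Idi1* and *Acss2* were at 108, 58.3 and 17.7 FPKM there, above 4-OHT DMSO and below EtOH DMSO.

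**Figure D4:**
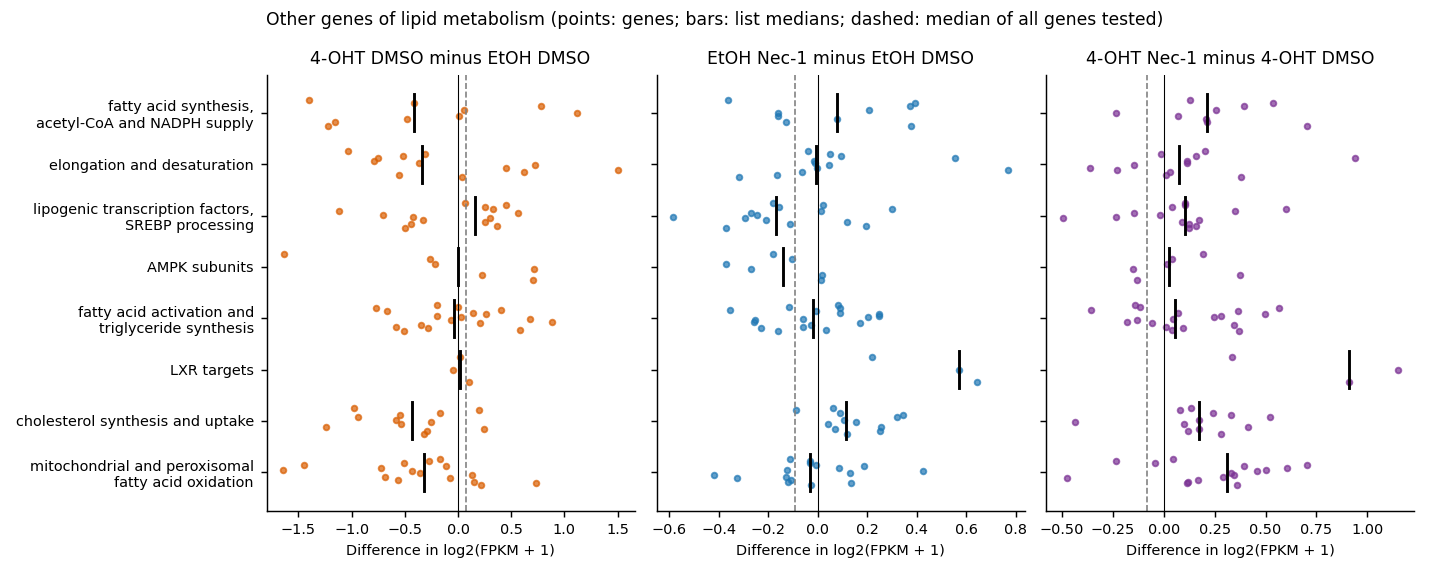
Differences in log2(FPKM + 1) of the tested genes in 8 lists of lipid metabolism, with 1 point per gene, black bars at list medians and a dashed line at the median of all genes tested. In 4-OHT DMSO against EtOH DMSO the medians of fatty acid synthesis, elongation and desaturation, cholesterol synthesis and fatty acid oxidation lie between −0.43 and −0.32, and with Nec-1 in EtOH organoids the LXR targets stand highest, at 0.57.

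The genes whose pattern over the 7 libraries was most like that of *Mid1ip1* or *Scd1* were sought among 2020 genes whose mean reached 5 FPKM, with a range of at least 1 log2 unit, by Pearson's r of log2(FPKM + 1). These r describe 7 libraries that share groups, and have no p. For *Scd1* they were *Cyp3a25* (0.995), *Cyp2b10* (0.987), *Mt2* (0.985), *Osbpl9* (0.983) and *Cpox* (0.983). *Cyp3a25*, a cytochrome P450 of drug metabolism, was 4.57 and 5.05 FPKM (EtOH DMSO), 68.8 and 67.9 (EtOH Nec-1), 1.32 and 1.29 (4-OHT DMSO) and 22.6 (4-OHT Nec-1), the same order of groups as *Scd1* over a wider range. *Cyp2b10*, a P450 of the same kind, was 14.0 and 11.5, then 56.4 and 52.0, 3.40 and 3.18, and 18.6 FPKM in that order of groups. For *Mid1ip1* they were *Gm25745* (0.927), *Tnfaip1* (0.861), *Fabp6* (0.858), *Gm10709* (0.823) and *Degs2* (0.823). *Degs2*, a desaturase and hydroxylase of sphingolipid synthesis, was 24.4 and 22.6 FPKM (EtOH DMSO), 37.7 and 37.2 (EtOH Nec-1), 81.0 and 94.4 (4-OHT DMSO) and 49.4 (4-OHT Nec-1). *Fabp6*, the ileal bile acid binding protein, varied widely between replicates, at 21.0 and 11.4 FPKM in 4-OHT DMSO. *Tnfaip1* was 8.04 and 10.2 FPKM in EtOH DMSO and 34.9 to 38.8 in the other 5 libraries, without the low 4-OHT Nec-1 value of *Mid1ip1*.

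**Figure D5:**
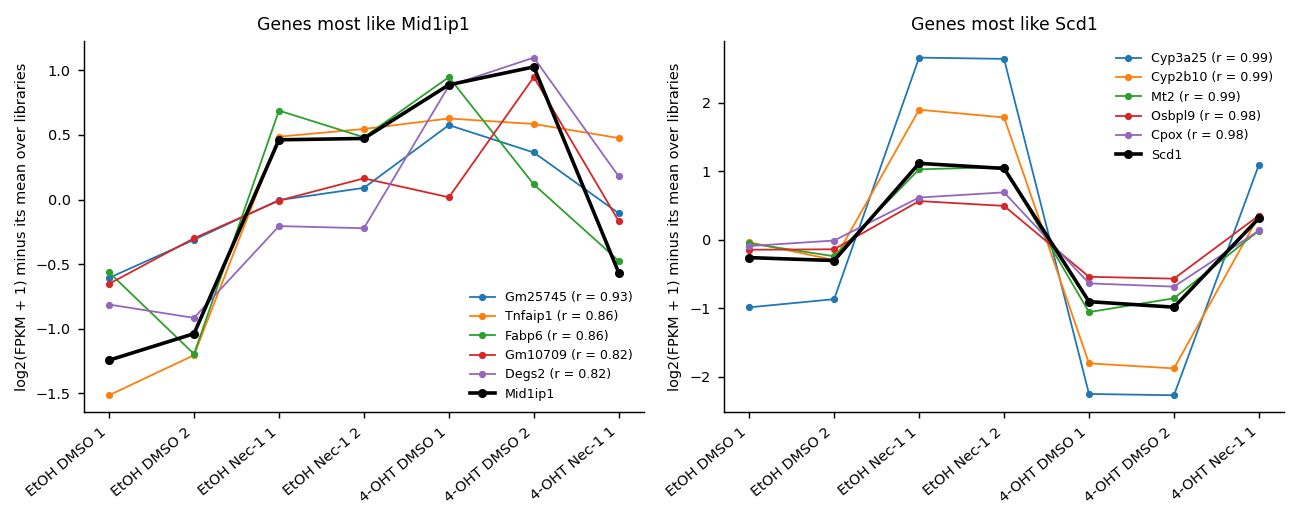
Log2(FPKM + 1) minus its mean over the 7 libraries for *Mid1ip1* (left) and *Scd1* (right), each in black, and the 5 genes most like it by Pearson's r over the 7 libraries. The genes like *Scd1* are high in both EtOH Nec-1 libraries and lowest in 4-OHT DMSO, and among those like *Mid1ip1*, *Tnfaip1* stays at 34.9 FPKM in 4-OHT Nec-1.

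Among the 9 genes themselves, the levels over the 7 libraries were alike for several pairs. *Scd2* and *Me1* had r = 0.986, *Scd1* and *Elovl6* 0.956, *Acaca* and *Acly* 0.954, *Acaca* and *Fasn* 0.950 and *Acly* and *Srebf1* 0.900. *Scd1* and *Srebf1*, whose product is a known activator of *Scd1*, had r = 0.132. The r of *Mid1ip1* with the other 8 genes ran from −0.734 for *Srebf1* to 0.110 for *Elovl6*. These too are descriptions over 7 libraries in 4 groups.

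Markers of cell types moved with the 4-OHT label, and some also differed with Nec-1. In 4-OHT DMSO, all 6 Paneth, 6 goblet and 6 enteroendocrine cell markers rose, and summed Paneth marker FPKM was 19150 to 19690 against 7399 to 8169 in EtOH DMSO, 8684 to 8874 in EtOH Nec-1, with 14700 in 4-OHT Nec-1. Summed goblet markers were 3055 to 3497 FPKM in 4-OHT DMSO against 1901 to 2098 in EtOH DMSO, and enteroendocrine markers 530 to 596 against 261 to 282. Of 9 tested enterocyte markers 3 rose and 3 fell, and their sum was 1269 to 1337 FPKM in 4-OHT DMSO against 1489 to 1539 in EtOH DMSO, 1226 to 1229 in EtOH Nec-1, with 1480 in 4-OHT Nec-1. *Apoa4*, which encodes an apolipoprotein of intestinal lipoproteins, was the only marker of these cell types past the threshold with Nec-1 in EtOH organoids. It was 96.2 and 92.6 FPKM (EtOH DMSO), 32.2 and 27.95 (EtOH Nec-1), 104 and 90.7 (4-OHT DMSO) and 38.0 (4-OHT Nec-1), so each Nec-1 library lay below each DMSO library. It fell by 1.62 with Nec-1 in EtOH organoids (limma adjusted p = 0.0102), and the difference was −1.33 in 4-OHT organoids. Of 6 stem cell markers 3 fell in 4-OHT DMSO, and of 6 proliferation markers 2 fell. Of all genes tested, 16.7% fell and 24.5% rose in that comparison. Summed stem cell markers were 75.1 to 76.4 FPKM (EtOH DMSO), 57.0 to 57.2 (EtOH Nec-1), 47.3 to 69.7 (4-OHT DMSO) and 41.3 (4-OHT Nec-1). Proliferation markers summed to 166 to 174, 146 to 150, 122 to 148 and 112 FPKM in the same order. With Nec-1 in EtOH organoids, 6 of 6 stem cell markers were lower without overlap (median −0.43, and −0.33 with median centring) and 4 of 6 proliferation markers (median −0.36, and −0.26), where 39.1% of all genes tested were lower without overlap. By limma 0 of these 12 passed there, with 3 stem cell and 4 proliferation markers lower at an unadjusted p under 0.05. All 8 interferon response genes rose, from a sum of 19.2 to 20.4 FPKM to 737 to 1046, and the sum was 73.6 in 4-OHT Nec-1 and 15.6 to 16.4 in EtOH Nec-1. The part of these in the lower lipogenesis genes and the higher *Mid1ip1* of 4-OHT DMSO, and in the differences with Nec-1, was not tested.

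Of the AhR targets, *Cyp1a1* rose with Nec-1 in EtOH organoids from 0.0180 and 0.0610 FPKM to 57.4 and 56.0 (limma adjusted p = 9.25e-05), and it was 0.322 and 0.103 FPKM in 4-OHT DMSO, but 170 in 4-OHT Nec-1. *Nqo1* fell in 4-OHT DMSO (−1.49, limma adjusted p = 0.000544), from 176 and 180 to 58.3 and 67.6 FPKM. It was 322 and 318 FPKM in EtOH Nec-1, with 220 in 4-OHT Nec-1, the order of groups seen for *Scd1*. With Nec-1 in EtOH organoids, *Nqo1* (0.84) and *Tiparp* (0.12) did not pass (limma adjusted p = 0.0603 and 0.638). The sum of the 7 AhR targets was 185 to 190 FPKM in EtOH DMSO and 386 to 391 in EtOH Nec-1. It was 69.0 to 79.4 in 4-OHT DMSO, but 409 in 4-OHT Nec-1. The lower sum in 4-OHT DMSO was due to *Nqo1*, the only one of the 3 tested targets that was lower there. *Cyp1a1* (log2 difference 0.22) and *Tiparp* (0.14) were higher there without overlap, and neither passed (limma adjusted p = 0.185 and 0.311). The part of the AhR targets in the levels of *Scd1*, *Me1* and *Mid1ip1* was not tested. The defining markers of adipocytes, in which lipogenesis genes are also high, were at or near 0: *Adipoq* and *Plin1* were listed at 0 in every library but 4-OHT Nec-1, where they were 0.0755 and 0.0227 FPKM, *Lep* was listed at 0 in all 7, and of the 7 adipocyte markers *Cidec*, at 4.20 to 8.17 FPKM, was the only one to reach 1 FPKM. All 6 fibroblast markers stayed under 1 FPKM in every library. Of 6 immune markers 4 did. Of the other 2, *Cd68* rose in 4-OHT DMSO, from 0.774 and 2.01 to 5.69 and 7.72 FPKM. *Itgam* was lower there without overlap, from 1.96 and 1.19 to 0.315 and 0.917 FPKM (limma adjusted p = 0.0786). *Vil1*, an epithelial marker whose promoter drives the Cre, was 102 to 159 FPKM.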

How the data were processed

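Per the submitters' processing notes, reads were processed with HISAT2 2.1.0 and StringTie 1.3.3b and mm10 was used. The authors deposited FPKM, 1 value per Ensembl gene and library, and these values are already scaled for length and library size. The 2 repeated columns were equal to their originals within a relative 1.2e-09, and 0 columns were left unmapped. Of 54838 identifiers, 54723 matched a symbol in the GRCm38.p6 RefSeq tables. The 2 CUT&Tag samples were not analysed here.

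Limma 3.58.1 (R 4.3.3) with a mean-variance trend was fitted to log2(FPKM + 1) of the 12702 genes that reached 1 FPKM in 2 or more libraries, with 1 mean per group over all 7 libraries (3 residual degrees of freedom), Benjamini-Hochberg adjustment and a threshold of 0.05, and was tested on simulated data. Descriptions used Python 3.11.15 with pandas 2.3.3. No overlap means that each library of a group lay beyond each of the other. Members and lists were chosen with earlier results of these data known. Named were the members, the genes most like *Mid1ip1* and *Scd1*, and in each list the 2 largest rises and 2 largest falls in 4-OHT DMSO and all genes past the threshold with Nec-1. *Abcg5*, *Abcg8*, *Acacb*, *Scd3*, *Scd4* and marker genes were added after their values were seen. Alternatives were pseudocounts of 0.1 and 0.25, other filters, median centring, upper quartile scaling, no trend, only the 4 libraries of a comparison, a replicate block and each library left out.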

Additional observations from a re-analysis of the deposited data

Results flagged for a closer look

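The following genes differed in direction between 2 groups under the same contrast, with every library on its side. None of these differences between groups was tested, since 4-OHT Nec-1 has 1 library, and values are log2 differences. *Mid1ip1* was 1.607 higher with Nec-1 in EtOH organoids and at −1.523 in organoids labelled 4-OHT. It was at 2.097 in 4-OHT DMSO against EtOH DMSO and at −1.033 in 4-OHT Nec-1 against EtOH Nec-1.

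The next genes were chosen for their likeness to *Mid1ip1*, so their directions are a description of that choice. *Degs2* was at 0.65 and −0.81 with Nec-1 in EtOH and in 4-OHT organoids. *Fabp6* was at 1.464 and −1.006 with Nec-1, and at 1.41 and −1.059 with 4-OHT without and with Nec-1. *Tnfaip1* was at 1.875 and −0.13 with Nec-1, and at 1.964 and −0.041 with 4-OHT. *Gm10709* was at 0.554 and −0.649 with Nec-1, and at 0.958 and −0.245 with 4-OHT. *Gm25745* was at 0.501 and −0.577 with Nec-1, and at 0.928 and −0.15 with 4-OHT.

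Among the named genes of lipid metabolism, the contrast with Nec-1 in EtOH and in 4-OHT organoids gave 0.767 and −0.231 for *Hsd17b12*. It gave −0.126 and 0.502 for *Hadh*. It gave −0.361 and 0.126 for *Pklr*, and −0.181 and 0.193 for *Prkag2*.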

How the results depend on the processing

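Of the 6 lipogenesis genes lower in 4-OHT DMSO by limma, 4 passed without a filter on low values, 4 when the fit held only the EtOH DMSO and 4-OHT DMSO libraries and 7 with upper quartile scaling, where *Elovl6* was added. Leaving out 1 library gave 3 to 6. The numbers of the libraries did not pair them (correlations of deviations −0.040, 0.0065 and −0.012), and with a replicate block 4 passed, without *Acaca* and *Srebf1*. *Scd2*, *Me1* and *Acly* passed in every fit. Over all genes, 3187 were lower and 2213 higher in 4-OHT DMSO with median centring, and 2976 and 2232 with upper quartile scaling; leaving out 1 library gave 1423 to 2124 lower and 2117 to 3108 higher, and the block 1909 and 2788.

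With Nec-1 in EtOH organoids, the 22 genes called higher became 6 without a filter, 37 with upper quartile scaling, 59 with only the 4 libraries, 15 with the block and 5 to 57 with 1 library left out. The 6 called lower became 2 without a filter, 20 with the 4 libraries, 4 with the block and 2 to 18 with 1 left out. Leaving out any library but 4-OHT Nec-1 moved the higher count, to 11 and 12 without an EtOH DMSO, 7 and 5 without an EtOH Nec-1 and 57 without a 4-OHT DMSO library. The lower count was 2 without either EtOH DMSO and 18 without either 4-OHT DMSO library. The cause was not tested.

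With median centring and upper quartile scaling, the Nec-1 differences in EtOH organoids were 1.46 and 1.47 for *Scd1*, and 1.71 for *Mid1ip1* with the latter. In 4-OHT organoids they were −1.41 and −1.39 for *Mid1ip1* and 1.37 and 1.39 for *Scd1*. For 4-OHT Nec-1 against EtOH Nec-1 they were −1.18 and −1.17 for *Mid1ip1* and −0.91 and −0.90 for *Scd1*, and *Mid1ip1* was at −1.05 with pseudocounts of 0.1 and of 0.25. Both scalings left 1 gene in place of 2 lower without overlap with Nec-1, under each label. Directions that turned were those of *Acaca* with Nec-1 in EtOH organoids (0.057 with centring, 0.046 with upper quartile scaling, −0.147 to 0.063 with 1 library left out, turned without EtOH DMSO replicate 2), of *Acly* in 4-OHT organoids (0.051 and 0.068) and of *Srebf1* there (−0.008 to 0.021, turned without 4-OHT DMSO replicate 2). The depth behind these FPKM is unknown, and 4-OHT Nec-1 rests on 1 library.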
